A study of Mus musculus with 2 samples.

Results

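The Dlx genes encode homeobox transcription factors related to Distal-less of the fly, and the 6 mouse members, Dlx1 to Dlx6, were examined here in newborn tooth and skin. All probes with one of these gene names that were not array controls were taken, which gave 7 probes for 6 genes, out of 55681 probes and 24323 named genes. The rule used names only and no measured value. Total RNA came from the tooth of wild-type mice and from the skin of wild-type mice, both labelled P0 (postnatal day 0), with 1 Agilent mouse array for each tissue. The study's methods gave a stage later by a day and described tooth germs, and named C57BL/6J as the wild-type strain. Its results wrote of incisor tooth germs that held epithelium and mesenchyme, without naming the jaw for these arrays. The number of animals behind an array is not given in the sources used here. A single array per tissue leaves the variation among mice unmeasured, and the differences therefore carry no test and no p-value. In bulk RNA, fewer cells of a type and less RNA per cell cannot be told apart.

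Dlx genes lie in pairs whose members face each other on opposite strands and share enhancers between them. In the pharyngeal arches, from which the jaws form, nested Dlx expression sets upper against lower jaw identity, with Dlx1 and Dlx2 active in both jaws and Dlx5 and Dlx6 in the lower jaw under endothelin signalling. Mice without Dlx1 and Dlx2 lack upper molars. Dlx3 is known for its part in epidermis, hair, enamel and bone, and mutations of human DLX3 cause tricho-dento-osseous syndrome, in which hair, teeth and bone are affected together.

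Each probe is an oligonucleotide of 60 bases that was printed as 1 spot on each array. The first 30 bases of the probes are shown 5′ to 3′ in lower case, since every value below rests on what these oligonucleotides bind. None is in capitals because no part was singled out.
Dlx1: gttgtcaaaaacgtttggacaagaacacct
Dlx1, other probe: cgcgactccgcgatccagagaccgcggccg
Dlx2: gatttgaatttgtttttatcttgtcctaaa
Dlx3: ttttttagagcaaccaagagaagcaggtcc
Dlx4: cctcgctgttgcctcgatcaaagaaactgc
Dlx5: gtgttgtgctggtttagaaatcagaaagaa
Dlx6: acagtgatcgaaaacggggaaatcaggttc
On mm9, the build named in the file headers, the Dlx1 probe lies at chr2:71371499-71371558 on the plus strand and the Dlx2 probe at chr2:71381553-71381612 on the minus strand. The Dlx3 probe is listed at chr11:94986262-94986357 on the plus strand, a span wider than the probe, and the Dlx4 probe at chr11:95001777-95001836 on the minus strand. The Dlx6 probe lies at chr6:6815092-6815151 on the plus strand and the Dlx5 probe at chr6:6828063-6828122 on the minus strand. No genome of this build was used, so which exon or UTR a probe reads was not analysed here. The probes differ from each other in sequence. The longest run of bases shared on the same strand by any pair of them, or with a probe of a Dlx non-coding RNA, was 8.

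All 6 genes were well above background on both arrays, the call that the extraction software makes for a clear signal. The tooth array gave this call for 56.7% of its probes and the skin array for 52.5%, and both arrays gave it for 62.8% of all named genes. The 75th percentile of the processed signal was 428 in tooth and 276 in skin. All 6 were higher in tooth, and 5 of them at least 2-fold, with a median of -3.30 for the skin value minus the tooth value on the log2 scale. None was at least 2-fold higher in skin. Over the 17409 named genes well above background on at least 1 array, 15.5% were at least 2-fold higher in tooth, 14.2% at least 2-fold higher in skin, and the median difference was -0.04. At least 8-fold higher values in tooth were found for 4 of the 6 members and for 2.73% of the named genes. With normexp background correction, Dlx1 (-2.04) and Dlx5 (-2.64) fell below 8-fold, as did Dlx1 with the mean of its probes (-1.37). The balance of tooth and skin over all genes depended on the scaling. Tooth held 52.2% of the 2-fold genes here, 63.4% after a shift to the median and 78.2% after scaling to spike-in transcripts.

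**Figure D1:**
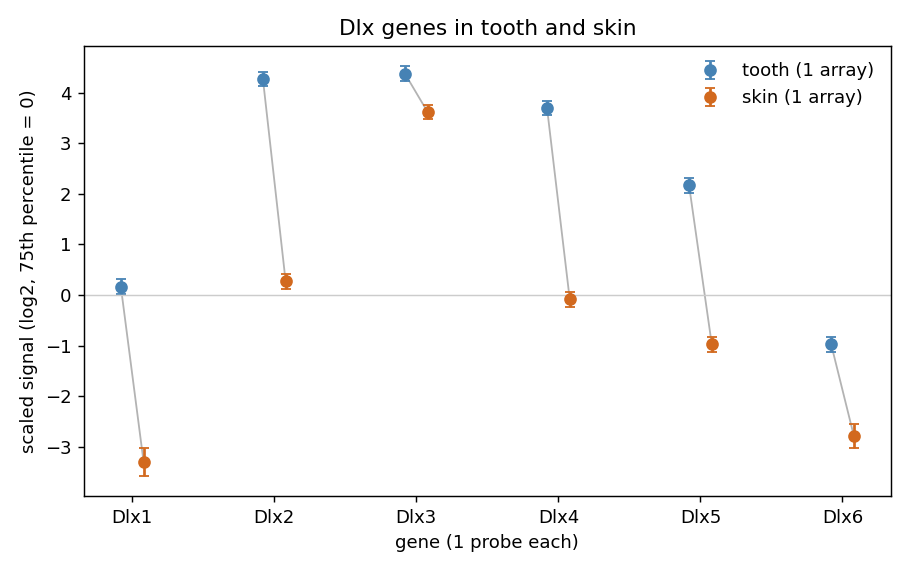
Scaled signal (log2, each array's 75th percentile at 0) of the 6 Dlx genes on the tooth and skin arrays, 1 point per array, with bars of 1 error as estimated by the extraction software for the spot. Levels of different genes come from different probes and are not comparable. Within each gene the tooth point is the higher, and Dlx3 has the smallest gap (-0.76).

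Dlx2, which acts with Dlx1 in the mesenchyme of the upper molars and is also transcribed in dental epithelium, had the largest difference of the family. Its processed signal was 8266 on the tooth array, with a software error of 827, and 333 on the skin array, with an error of 33.6. After each array was scaled to its 75th percentile these values were 4.27 and 0.27 (log2), a difference of -4.002 with an error of 0.20, or 16.02-fold higher in tooth. Of the 15271 genes well above background on both arrays, 0.609% lay further toward tooth.

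Its partner Dlx1 was also higher in tooth. The signal was 479 ± 48.1 (software error) in tooth and 28.1 ± 5.38 in skin. The scaled values were 0.16 and -3.30, and the difference was -3.46 with an error of 0.31, or 11.02-fold higher in tooth. The skin signal was close to background, and normexp background correction moved the difference to -2.04. The other Dlx1 probe (chr2:71367411-71367470, GC content 73.3%) had no clear signal on either array, with values of 4.69 in tooth and 5.02 in skin that are surrogate values set by the software. It belongs to an Ensembl transcript. All of its 60 bases were found in the RefSeq promoter window of Dlx1 (GRCm38.p6), from 91 to 32 bases before the start of the RefSeq transcript, so it reads sequence upstream of that start. A mean of both probes gave -1.37.

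Dlx4, the partner of Dlx3, had a signal of 5559 ± 556 in tooth and 260 ± 26.5 in skin. Scaled, this was 3.70 and -0.09, a difference of -3.79 with an error of 0.21, or 13.8-fold higher in tooth. In tooth the spot was bright and in skin it stood clearly above background.

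Dlx3 had the smallest difference of the family as scaled here. Its signal was 8891 ± 889 in tooth and 3387 ± 339 in skin, so this gene was bright on both arrays. The scaled values were 4.38 and 3.62. The difference of -0.76 (error 0.20) was 1.69-fold toward tooth and below 2-fold. It passed 2-fold after a shift to the median (-1.01) and after spike-in scaling (-1.39), which moved the median of all named genes by -0.25 and -0.62. Of the genes measured on both arrays, 16.8% lay further toward tooth than Dlx3.

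Dlx5, an activator of osteoblast genes in bone, had a signal of 1923 ± 192 in tooth and 140 ± 14.9 in skin. The scaled values were 2.17 and -0.98, and the difference was -3.15 with an error of 0.21, or 8.85-fold higher in tooth. Dlx6, which acts redundantly with Dlx5 in the lower jaw, had a signal of 218 ± 22.3 in tooth and 40.1 ± 6.41 in skin. Its scaled values were -0.97 and -2.79. The difference was -1.81 with an error of 0.27, or 3.51-fold, and normexp correction brought it below 2-fold (-0.83).

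The differences could be ordered only in part. From Dlx2 through Dlx4 and Dlx1 to Dlx5, successive genes were apart by 0.22, 0.32 and 0.32 (log2), with errors of 0.29, 0.37 and 0.38. These neighbours thus did not differ beyond the software's error for their spots. The step from Dlx5 to Dlx6 was 1.33 (error 0.35) and that from Dlx6 to Dlx3 was 1.05 (error 0.34). By pair, Dlx1 and Dlx2 were apart by 0.54 (error 0.37), Dlx5 and Dlx6 by 1.33, and Dlx3 and Dlx4 by 3.03 (error 0.29). The genes of the Dlx3 and Dlx4 pair thus differed 8.14-fold in their ratio of tooth to skin. These errors describe a spot, are set for bright spots by a fixed 10% term of the software, and leave out dissection, RNA preparation and labelling. Probes printed at least 8 times, at brightness near that of the members, gave a smaller scatter, with an SD of a difference from 0.08 for Dlx3 to 0.23 for Dlx6. This SD was 0.10 for Dlx2 and for Dlx4, 0.22 for Dlx1 and 0.12 for Dlx5. Each step from Dlx2 to Dlx5 was larger than the SD of either of its genes. Whether these steps exceed the error thus depends on the error used. The order below Dlx4 depended on the processing. With normexp background correction Dlx5 (-2.64) came before Dlx1 (-2.04), and Dlx3 (-0.86) and Dlx6 (-0.83) were nearly equal and changed places. The gap between Dlx1 and Dlx2 was 1.89 with normexp and 2.64 with the mean of each gene's probes, which were larger than the gaps of 1.81 and 1.33 between Dlx5 and Dlx6 under the same settings. The gap between Dlx3 and Dlx4 was 2.70 with normexp.

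**Figure D2:**
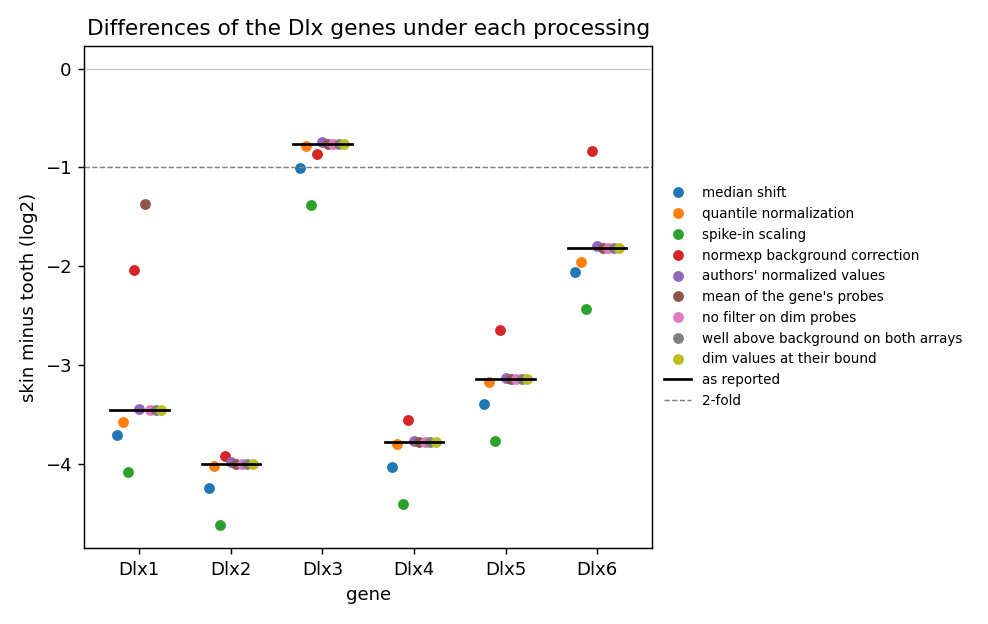
Difference between skin and tooth (log2) of each Dlx gene, as reported (black line) and under 9 alternatives (coloured points), with a dashed line at 2-fold higher in tooth. Every point lies below 0. Points for the other filters and for the bounds equal the reported value, because every member was well above background on both arrays. Dlx3 and Dlx6 have points on both sides of the dashed line, and the highest point of Dlx1 (-1.37) is the mean with its dim upstream probe.

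Over 2 arrays the pattern of a gene is reduced to a single difference, so likeness to a member could be measured only on that. The named genes with a difference closest to that of Dlx2 were Camk4 (-4.01), a calcium-dependent kinase, Arrb1 (-3.999), a beta-arrestin, and Cnksr2 (-4.01), a scaffold of Ras signalling.

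Other homeobox genes of the same NKL class were set beside the family. Of 43 listed genes, 42 had a probe and 24 gave a clear signal in 1 or both tissues. Of these, 9 were at least 2-fold higher in tooth and 4 in skin, beside 15.5% and 14.2% of all named genes. The median difference of the 24 was 0.13. Spike-in scaling brought this median to -0.49 and a median shift to -0.12. A difference of at least 8-fold toward tooth was found for 2 of the 24, with values at their bound where the skin spot was dim. Over all named genes with a clear signal the share was 2.73%. That share counts dim values unchanged, so it is not the same measure.

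Examples of the class that were higher in tooth follow. Msx1, which is needed for tooth germs to pass the bud stage, was at 2.51 in tooth and 0.49 in skin (-2.01). Msx2, with roles in enamel, hair and skull, was at 5.01 and 2.61 (-2.40). Barx1, a marker of molar mesenchyme, was at 0.35 in tooth and without a clear signal in skin, which put tooth at least 16.9-fold higher. For Tlx1 this bound was 9.30-fold. Nkx2-3 differed by -2.87.

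The members of the class higher in skin were Nkx3-2 (3.26), Msx3 (2.74), Barx2 (1.41), which has been described in hair follicles and muscle, and Hmx1, which had no clear signal in tooth and a bound of at least 2.26-fold. The other probe of Msx3 gave a clear signal in tooth alone, so the direction of Msx3 is uncertain. Nkx3-2 was at -3.31 in tooth and -0.05 in skin.

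**Figure D3:**
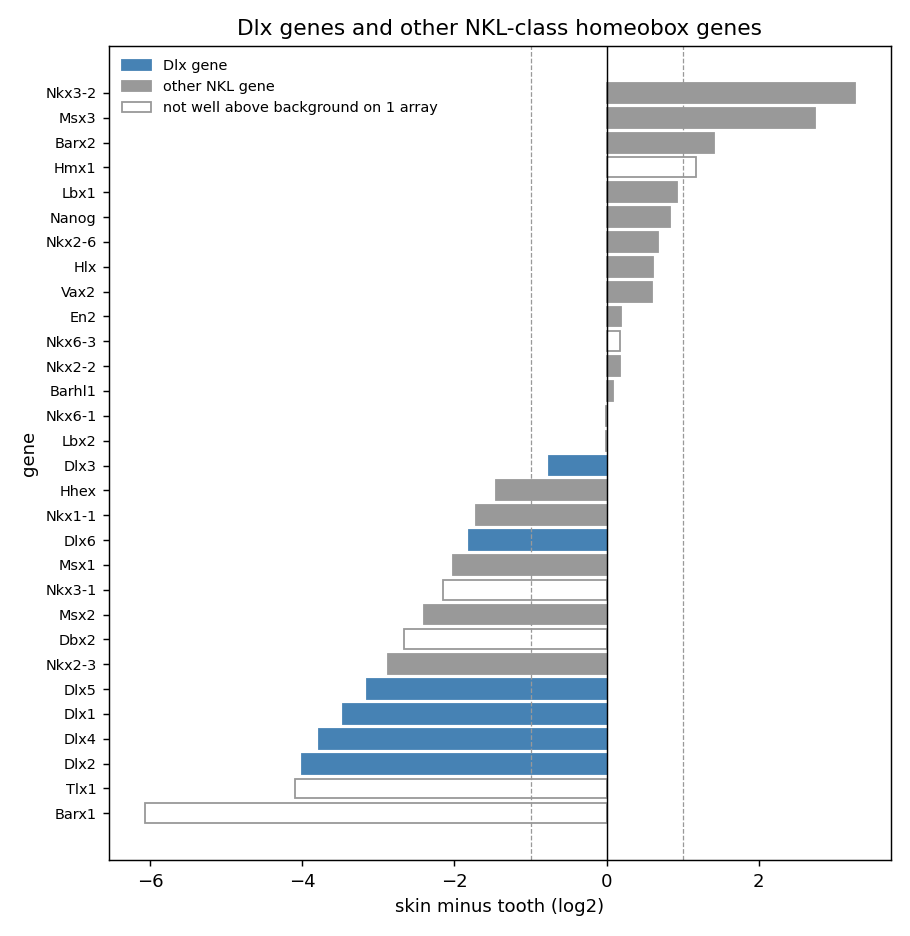
Differences between skin and tooth (log2) for the 6 Dlx genes and the 24 other NKL-class homeobox genes well above background on at least 1 array, in order of size. Open bars are genes not well above background on 1 of the arrays, whose length is the measured value and not a fold, and dashed lines mark 2-fold. The Dlx bars all point toward tooth, whereas the other genes lie on both sides.

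Non-coding RNAs from the Dlx loci were measured by 4 probes. Dlx6os1, also known as Evf2, is transcribed across the Dlx5 and Dlx6 enhancers on the strand opposite to Dlx6 and is known to act on these genes in the forebrain. Its probe (chr6:6771400-6771456, minus strand) begins with aaagctccgagtatctaaatagtagccctg. It had a signal of 301 in tooth and 7.92 in skin, below the call for a clear signal, so tooth was at least 9.33-fold higher. Dlx4os, which lies next to Dlx4, had a signal of 308 in tooth and 19.5 in skin (chr11:95020238-95020297), again without a clear signal in skin, and tooth was at least 9.55-fold higher. Its probe begins with aagacaaagtcttactgtgtaactctgact.

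The antisense RNA within Dlx6 behaved differently from its neighbours. Dlx6os2 (chr6:6814483-6814542, minus strand) had a signal of 251 ± 25.6 in tooth and 143 ± 15.2 in skin. After scaling it was at -0.77 and -0.95, a difference of -0.19 with an error of 0.21. The Dlx6 probe, which lies 0.609 kb away on the other strand, differed by -1.81. The Dlx6os2 probe begins with ctggacaacggagagctatcaaccccaggc, and its longest run shared with the Dlx6 probe on the same strand was 7 bases. Dlx1as gave no clear signal in either tissue, with values of 8.21 and 4.81.

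The genes next to the pairs were then examined. Of the 18 RefSeq neighbours fixed by position, only 6 had a probe on the array, so the nearest 3 protein-coding genes on each side of each pair were added after the values were known. Among these 18, 16 gave a clear signal in 1 or both tissues, 5 were at least 2-fold higher in tooth and 0 in skin. Over all named genes with a clear signal, the shares were 15.5% and 14.2%. At Dlx1 and Dlx2 none of the protein-coding neighbours with a clear signal reached 2-fold, whereas Platr26, a non-coding RNA gene among the neighbours fixed by position, was at least 7.33-fold higher in skin. Metap1d, a mitochondrial methionine aminopeptidase whose probe lies 17.9 kb from the nearest Dlx1 probe, differed by -0.70, and Itga6, the integrin of hemidesmosomes, by -0.20.

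At Dlx3 and Dlx4, Samd14 (-1.58) and Pdk2 (-1.06) were higher in tooth, whereas Itga3 (-0.39), Kat7 (0.01) and Fam117a (-0.65) were within 2-fold. The other probe of Pdk2 gave -0.44. At Dlx5 and Dlx6, the nearest genes Sem1 (-0.11) and Sdhaf3 (-0.67) were within 2-fold. Slc25a13 (-1.37) was higher in tooth, and Dync1i1, whose exons hold known enhancers of Dlx5 and Dlx6, was at 2.85 in tooth with no clear signal in skin, a bound of at least 95.7-fold. For Tac1, a neuropeptide precursor, the bound was 7.49-fold toward tooth. Within 100 kb of a Dlx probe lay 4 probes for long non-coding regions, and none of them was well above background. All were on the Dlx4 side near the edge of the window, from 95.96 to 96.54 kb from the Dlx4 probe.

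**Figure D4:**
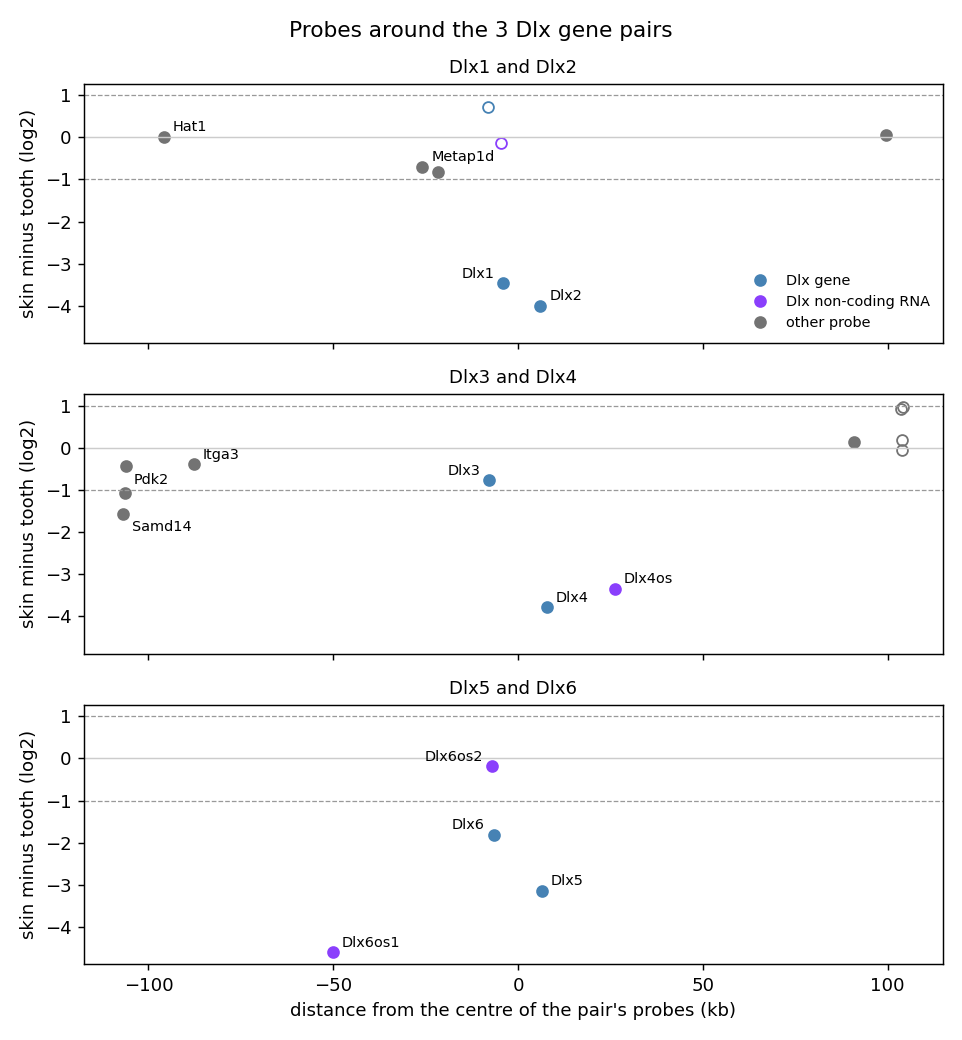
Difference between skin and tooth (log2) of every probe within 100 kb of a Dlx probe, against its distance in kb from the centre of the pair. Open points are well above background on neither array, and dashed lines mark 2-fold. The probes of Dlx1, Dlx2, Dlx4, Dlx5, Dlx4os and Dlx6os1 lie below -3, apart from the dim Dlx1 probe, while Dlx3 and Dlx6os2 stay within 2-fold. Dlx4os and Dlx6os1 had no clear signal in skin, so their filled points show the measured value and not a fold. Their bounds were at least 9.55-fold and 9.33-fold toward tooth.

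RefSeq promoter sequence was at hand for 2 of the 6 members, Dlx1 and Dlx2. The motif TAATT, the core that Dlx homeodomains are known to bind, was searched on both strands of the 250 bases before the transcript start. It was found in 25.03% of 32851 promoters and in 0 of the 2 Dlx promoters, whose GC contents were 68.0% and 66.4%. This says only that these letters are not in the window.

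Signals and factors known to act upstream of Dlx genes did not follow the family. Of 10 genes, all measured on both arrays, 0 were at least 2-fold higher in tooth and 3 in skin. Over all named genes these shares were 15.5% and 14.2%. The median of the 10 was 0.18, and it turned to -0.45 under spike-in scaling and -0.07 under a median shift. Bmp4, an inducer of Dlx and Msx genes in dental mesenchyme, was at 4.54 in tooth and 3.68 in skin (-0.86). Bmp2 (0.04), Bmp7 (0.15) and Trp63 (0.16), the p63 regulator of stratified epithelia, were nearly equal. Fgf8 was dim on both arrays (0.19). The genes higher in skin were Tfap2c (4.403), Tfap2a (2.48) and Lef1 (1.79).

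The endothelin pathway of the lower jaw acts through Dlx5 and Dlx6 on Hand2. It was measured from ligand to targets, together with other arch patterning genes. Of 16 genes, 14 gave a clear signal in 1 or both tissues, 5 were at least 2-fold higher in tooth and 1 in skin. Over all named genes with a clear signal, these shares were 15.5% and 14.2%. The median of the 14 was -0.45. The ligand Edn1 was the gene higher in skin, at -4.22 in tooth and 0.17 in skin (4.39). The receptor Ednra was nearly equal, at 1.67 and 1.65. Ece1, the enzyme that processes the ligand, was within 2-fold (0.73). Of the G proteins, Gnaq differed by -1.09, whereas Gna11 was within 2-fold (-0.83).

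Among the other genes of this list, Hand2 was at 1.07 in tooth with no clear signal in skin, a bound of at least 27.9-fold. Gsc, a homeobox gene of the lower jaw, was at least 14.95-fold higher. Alx4 (0.32), Jag1 (-0.13), Nr2f1 (-0.07) and Mef2c (-0.77) were within 2-fold. Hand1 and Pou3f3 gave no clear signal in either tissue. Of the 11 listed genes measured on both arrays, 2 were at least 2-fold higher in tooth. Of all 15271 named genes measured on both, 1883 were.

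Protein partners of Dlx factors were Msx1 and Msx2, which bind Dlx proteins and oppose them, and Maged1 and Ndn. Of these 4 genes, 3 were at least 2-fold higher in tooth, beside 15.5% of all named genes. Msx1 and Msx2 are among these and were already counted with the NKL genes above. The median of the 4 was -1.997. Maged1 had a scaled value of 5.12 in tooth and 3.14 in skin (-1.98), and Ndn differed by -0.95.

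Genes known to lie downstream of Dlx factors were listed by tissue, and 10 of the 14 mineral genes and 7 of the 9 epidermis and hair genes are also in the marker lists for these tissues. The choice of genes thus set the directions, which say nothing about Dlx activity. Of 14 genes of enamel, dentin and bone, 13 were at least 2-fold higher in tooth, 9 of them without a clear signal in skin. The exception was Runx2, the master regulator of osteoblasts, at -0.97 by its representative probe, while its other probes gave a clear signal in tooth alone. All 9 genes of epidermis and hair were at least 2-fold higher in skin. They included Hoxc13, a hair shaft regulator known as a Dlx3 target, with -2.46 in tooth and 2.75 in skin (5.20), and Gata3, of the inner root sheath (7.75). Dlx3, which was within 2-fold between the tissues, is known to act on genes in both of these lists.

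**Figure D5:**
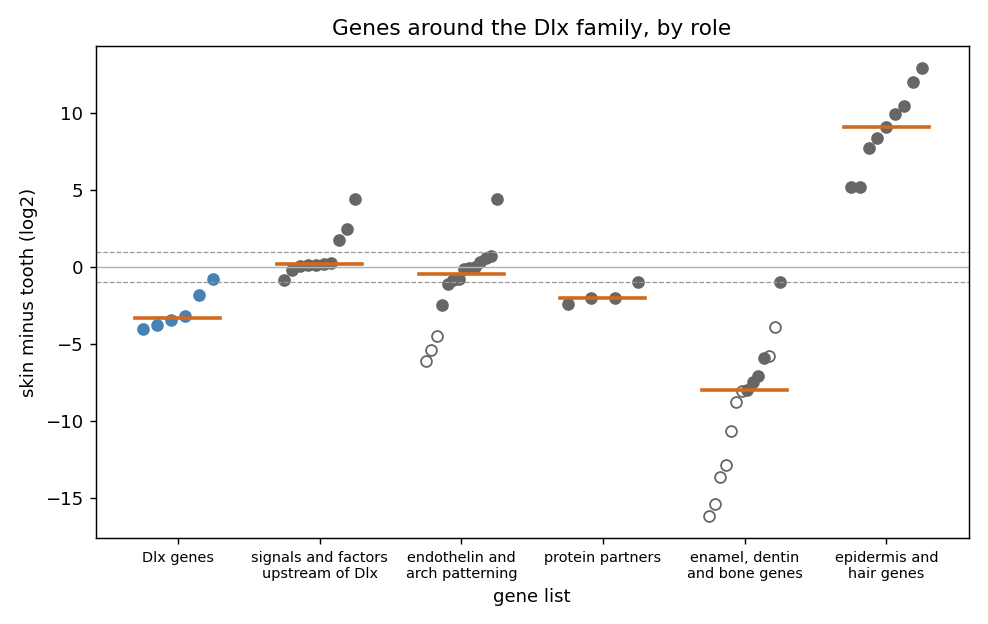
Differences between skin and tooth (log2) of the Dlx genes and of 5 lists of related genes, 1 point per gene well above background on at least 1 array. Open points are not well above background on 1 of the arrays, orange lines are medians (-3.30 for Dlx, 0.18 upstream, -0.45 endothelin, -1.997 partners, -7.99 mineral genes, 9.11 epidermis and hair), and dashed lines mark 2-fold.

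The defining markers followed the tissue labels. Of the ameloblast markers 4 of 4 (Amelx, Ambn, Enam and Mmp20) and of the odontoblast markers 3 of 3 gave a clear signal in tooth alone. Of the epidermal markers (Krt1, Krt10, Lor and Flg) 4 of 4 and of the hair follicle markers 4 of 4 were at least 2-fold higher in skin. Cells of other kinds also differed between the samples. Markers of osteoblasts, which express Dlx5, were at least 2-fold higher in tooth in 5 of 5 cases, and their summed level was 9.26 in tooth and 5.71 in skin (log2). Col1a1, at 8.85 in tooth and 5.68 in skin, made up most of both sums. The median difference of these markers was -7.04. Cartilage markers were higher in tooth in 2 of 3 measured cases (summed 1.89 and -1.61), and fibroblast markers in 2 of 4 (7.91 and 6.40), with Dpt well above background in skin only. The cartilage sum in tooth was mostly Col2a1 (1.71), and the fibroblast sums were mostly Dcn and Lum. Muscle markers were higher in skin in 4 of 4 cases (1.85 and 4.83), and of 3 Schwann cell markers 1 was higher in skin (-0.15 and 1.58). Over all named genes with a clear signal, 15.5% were at least 2-fold higher in tooth and 14.2% in skin. The neuronal markers Gad2 and Elavl3 gave no clear signal in either tissue, whereas Tubb3 had 4.37 in tooth against 1.20 in skin, and Gad1 was at least 1.44-fold higher in tooth (summed 4.38 and 1.23). Tubb3 made up nearly all of these sums. The part of these cells in the Dlx differences was not tested.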

How the data were processed

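The authors labelled RNA with Cy3 and hybridised it to SurePrint G3 arrays. Per the file headers, the deposited intensities came from Agilent Feature Extraction (version 10.7.3.1), which subtracts a fitted spatial trend, removes multiplicative trends and sets very dim values to surrogates. Its flags for controls, outlier spots, saturation and signal above background are other deposited columns. The authors also deposited 1 value per spot, which was the ratio of the processed intensity to a constant per array (431 for tooth, 275 for skin), on a linear scale and not centred on any gene. The medians of these columns were 0.0810 and 0.0989.

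Here, spots with outlier flags were left out (137 on tooth, 146 on skin), log2 intensities of a probe's spots were averaged, and each array's 75th percentile over 55675 probes was subtracted. No spot was saturated. A gene was represented by its probe with the highest mean. Symbols came from array accessions matched to RefSeq (27234 of 33182 named probes). A probe was well above background when more than 50% of its spots were. Where only 1 array met this, the brighter value was set against the higher of the dim value and the lowest signal well above background on that array (-4.52 in tooth, -3.73 in skin), and the fold is a lower bound. In medians and counts such a dim value entered unchanged. The number of arrays limits the precision. The error of a spot is the software's own estimate, with a multiplicative part preset to 10%, combined in quadrature for a difference.

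The members and lists were chosen with earlier results of these data known. Some genes of the lists are not reported here by name. Apart from these, the text draws its names from all members, genes of the lists, neighbours of the pairs, probes within 100 kb, and the 3 genes with a difference closest to the largest of a member. The lists were NKL homeobox genes, endothelin and arch genes, upstream factors, protein partners, mineral genes, epidermis and hair genes, Dlx non-coding RNAs, and markers of ameloblasts, odontoblasts, osteoblasts, cartilage, epidermis, hair follicle, fibroblasts, muscle, neurons and Schwann cells. Alternatives were another percentile, quantile, spike-in, normexp (limma 3.58.1, offset 50), the authors' values, the mean of probes, other filters, bounds and a 4-fold threshold. The calculation was tested on simulated data.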

Additional observations from a re-analysis of the deposited data

How the results depend on the processing

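The 6 Dlx genes were higher in tooth under all 9 alternatives that gave a difference. Some of these could not change a member. All 6 were well above background on both arrays, so the other filters and the bounds for dim values repeated the reported values. The authors' values, a median shift and spike-in scaling each moved all members by the same amount. The number at least 2-fold higher in tooth was 5 as reported, 6 after a median shift or spike-in scaling, 4 after normexp correction and 4 at a 4-fold threshold, and the number at least 2-fold higher in skin was 0 throughout. The Dlx median of -3.30 was -3.55 after a median shift, -3.93 after spike-in scaling, -2.34 after normexp correction and -2.48 over the mean of each gene's probes. For the dim genes Dlx1 and Dlx6, normexp, which adds an offset to both arrays, gave smaller differences. Over all named genes, 2691 were at least 2-fold higher in tooth and 2466 in skin. Spike-in scaling gave 5648 and 1572, normexp 1672 and 1743, a 4-fold threshold 1095 and 1290, no filter 2885 and 3676, and a median shift 3500 and 2020. The median of all named genes, -0.04 as reported, was 0.034 with normexp and 0.18 without a filter. Of the 2-fold genes, 52.2% were higher in tooth as reported, and 43.97% without a filter. For NKL genes normexp gave 6 in tooth and 3 in skin. With 1 array per tissue no array could be left out. No paired analysis was possible because each tissue had a single array. Dim skin signals limit Dlx1 and Dlx6.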

Other observations

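Platr26, a long non-coding RNA gene near Dlx2 in the RefSeq order, was at -4.26 in tooth, without a clear signal, and at -1.39 in skin, a bound of at least 7.33-fold toward skin. Among the 6 RefSeq neighbours fixed by position that had a probe, it was the only gene well above background with a difference of at least 2-fold. Tac4, near Dlx4, gave no clear signal in either tissue.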
